A study of Homo sapiens with 5 samples.

Results

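The forkhead (FOX) transcription factor genes were described in melanoma cells and in melanocytes, both after knockdown of BPTF. Members were the protein-coding genes of GENCODE 29 whose symbol is FOX followed by a letter and digits, with or without a suffix, and FOXD3 and FOXM1 were not part of the set. The rule gave 48 genes. Of these, 47 are forkhead genes, and FOXL2NB, the neighbour of FOXL2, matches the symbol without being one. The count tables together listed 40263 genes, of which 31029 were listed for both cell lines, and 37 of the 48 members were among the latter.

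Forkhead proteins bind DNA through a winged-helix domain, the forkhead, and most of them recognise closely related sites built around the letters GTAAACA. The letter after FOX names the subfamily. FOXO proteins act at the end of insulin and growth factor signalling, since AKT and SGK kinases phosphorylate them and 14-3-3 proteins then hold them in the cytoplasm. When that signal is low they enter the nucleus and activate genes of cell cycle arrest, cell death, stress resistance and autophagy. FOXP proteins act mainly as repressors, FOXC proteins act in mesenchyme and the neural crest, and FOXL2 maintains granulosa cells of the ovary.

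The study asked how BPTF, the largest subunit of the chromatin remodelling complex NURF, works with the melanocyte factor MITF. The libraries analysed here were 2 replicates of 501Mel, a human melanoma line, and 3 replicates of Hermes 3A, an immortalised human melanocyte line, all of them infected with a lentivirus expressing an shRNA against BPTF and selected for 5 days with puromycin at 3 µg/ml. The labels do not say which shRNA was used or whether replicates were separate cultures, so that p-values measure the spread between these libraries only. Libraries of control cells were not analysed here, so that every comparison is between the lines in the presence of shBPTF. Since 501Mel cells were grown in RPMI with serum and Hermes 3A cells in medium with a phorbol ester (TPA), cholera toxin, stem cell factor and endothelin-1, line and medium cannot be told apart.

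Values are read counts per gene from total RNA depleted of ribosomal RNA, given here as CPM, in which each count is divided by its library's total and multiplied by 1000000. The totals ranged from 30073071 to 43032311, and 3 counts correspond to 0.0697 to 0.0998 CPM, which covers counting error only. BPTF had 65.8 and 57.8 CPM in 501Mel cells and 45.8, 51.6 and 54.1 CPM in Hermes 3A cells, which does not check the knockdown in the absence of controls. MITF was read at 643 to 854 CPM in the 5 libraries, and 5 of the 7 melanocyte lineage genes differed between the lines, with DCT higher in 501Mel cells and SOX10, PMEL, MLANA and TYR lower. DCT, the dopachrome tautomerase of melanin synthesis, was at 7.37 to 13.1 CPM in Hermes 3A cells against 1068 and 1300 CPM in 501Mel cells. Summed over the 6 fibroblast markers the levels were 4.31 to 18.9 CPM in 501Mel cells and 78.3 to 189.8 CPM in Hermes 3A cells. Most of the latter came from the collagen gene COL1A2, which alone of the 5 tested was called. The other fibroblast markers had higher means in 501Mel cells, such as LUM at 5.33 against 3.15 CPM. Of them COL1A1, COL3A1, LUM and PDGFRA overlapped between the lines, and DCN was below the filter. The endothelial markers VWF, CDH5 and KDR summed to 0.651 to 0.792 and 9.25 to 12.9 CPM, the latter mostly KDR, the immune markers to at most 0.538 CPM in any library, with PTPRC at 2 counts or fewer in each line, and the keratinocyte markers KRT10, TP63 and DSG3, with KRT14 listed for 501Mel cells alone, to 32.9 to 34.3 and 43.9 to 48.2 CPM, mostly KRT10. The keratins KRT5 and KRT1 and the endothelial marker PECAM1 were not matched in the tables and are not in these sums. Among those tested, 2 keratinocyte, 2 endothelial and 1 immune marker were called, all lower in 501Mel cells. The part of these genes in the differences below was not tested. In Hermes 3A replicate 2, 6663 of 34033 listed genes were at 0 counts, against 9240 and 9730 in replicates 1 and 3.

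Of the 37 members listed for both lines, 23 passed the filter on low counts and were tested with edgeR's quasi-likelihood test over 17975 genes, and a gene was called at a Benjamini-Hochberg adjusted p under 0.05. Of the 23, 8 were called higher and 3 lower in 501Mel than in Hermes 3A cells. FOXO6, FOXP1, FOXP2, FOXP3, FOXC1, FOXN2, FOXN4 and FOXJ3 were higher, and FOXO1, FOXL2 and FOXQ1 were lower. The called share, 11 of 23 or 47.8%, was near that of all genes tested, 48.2%, so that the number of differing forkhead genes is not a result about the family. Over all genes 24.2% were called higher and 24.0% lower, against 34.8% and 13.0% of the 23 members. The CPM of the lines did not overlap for 15 members, 10 higher in 501Mel and 5 lower, where 69.8% of all genes tested had no overlap. The median log2 fold change was 0.13 for the 23 members and 0.025 for all genes. A member with counts in a single line passed the filter through that line alone, and therefore these counts and medians support nothing about the members. The 3 called lower became 6 without 501Mel replicate 1 and 5 without Hermes 3A replicate 1. In libraries of whole cultures, fewer cells that express a gene and less RNA per cell cannot be told apart.

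**Figure D1:**
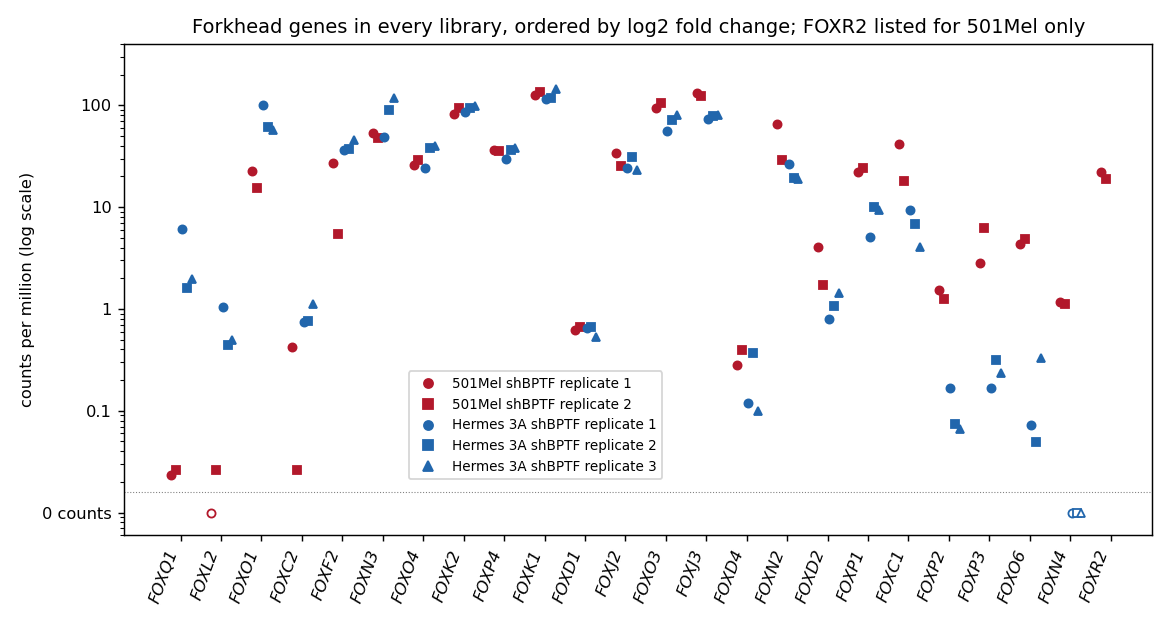
CPM of the 23 tested forkhead genes and of FOXR2 in each library, on a log axis, with open symbols for 0 counts and genes ordered from lowest to highest log2 fold change of 501Mel over Hermes 3A. FOXK1, FOXK2, FOXP4 and FOXJ2 overlap between the lines at 23.0 to 144 CPM, while FOXQ1, FOXL2 and FOXO1 at the left and FOXP2, FOXP3, FOXO6 and FOXN4 at the right separate them.

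The FOXO genes differed in opposite directions. FOXO1 (ENSG00000150907, chr13:40469953-40666597 of GRCh38, minus strand) had 22.5 and 15.3 CPM in 501Mel cells and 102, 61.5 and 57.8 CPM in Hermes 3A cells. Every 501Mel value was below every Hermes 3A value, and the Hermes 3A replicates themselves spread 1.76-fold with replicate 1 the highest. FOXO1 was 4.11-fold lower in 501Mel cells (log2 fold change -2.04, SE 0.33, adjusted p 0.00246, edgeR). FOXO6 (ENSG00000204060, chr1:41361922-41383590, plus strand), a family member best known from the brain, had 4.35 and 4.86 CPM in 501Mel cells and 0.0720, 0.0489 and 0.333 CPM in Hermes 3A cells, where replicate 3 with 10 counts stood above the others with 3 and 2 counts. It was higher in 501Mel cells (log2 fold change 4.94, SE 0.70, adjusted p 0.00147, edgeR), and the value was 6.07 without Hermes 3A replicate 3.

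FOXO3 and FOXO4 were not called. FOXO3, the FOXO gene most often tied to longevity and to oxidative stress, had 94.1 and 104 CPM in 501Mel cells and 56.4, 71.6 and 80.7 CPM in Hermes 3A cells. The values did not overlap, but the difference did not pass the test (log2 fold change 0.46, SE 0.17, adjusted p 0.0566, edgeR). It passed with the total count alone (adjusted p 0.0424), with at least 10 counts in every library (adjusted p 0.0487) and with the replicate block. Of the 50-base words in its exons, 27.8% also occur in exons of other genes, chiefly the pseudogene FOXO3B and AC026271.3, so that its count is uncertain where reads were split. FOXO3B itself was at 1.69 to 3.16 CPM in the 5 libraries. FOXO4 had 25.8 and 28.8 CPM in 501Mel cells and 24.3, 38.3 and 39.8 CPM in Hermes 3A cells, which overlap (log2 fold change -0.38, adjusted p 0.204, edgeR). Without Hermes 3A replicate 1 it was called lower (-0.57, adjusted p 0.0225).

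On a scale per length the 4 FOXO genes together gave 25.1 and 26.4 CPM per kb of exon in the 501Mel libraries and 30.7, 30.3 and 31.4 in the Hermes 3A libraries. In 501Mel libraries FOXO1 made up 14.4% and 9.31% of that sum, and in Hermes 3A libraries 53.1%, 32.6% and 29.5%. The share of FOXO3 was 48.6% and 51.3% in 501Mel libraries, and in Hermes 3A libraries it was 23.8%, 30.6% and 33.3%. These shares are levels of RNA, carry no test, and say nothing on where the proteins were in the cell. The sums and shares also depend on the length taken. With the median transcript length, FOXO4 had a mean of 27.2 CPM per kb in 501Mel cells, FOXO3 13.6 and FOXO1 10.7. In Hermes 3A cells FOXO1 had 41.5, FOXO4 34.0 and FOXO3 9.52.

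The promoters of the FOXO genes called in opposite directions are shown from RefSeq on GRCh38.p14, each with 250 bases before and 50 bases after the annotated start, in lower case and with capitals for any match to the letters searched. The letters were TATAAA, the TATA box, then GTAAACA, the core that forkhead proteins bind, and then the E-boxes of the kind that MITF recognises, which are CACGTG in one form and in the other form CATGTG. All were searched on both strands, and a match of the second E-box can overlap one on the other strand. Neither promoter holds any of them, so both are printed wholly in lower case. The FOXO1 window is chr13:40666592-40666891 on the minus strand with 33 CpG, and the FOXO6 window is chr1:41361184-41361483 on the plus strand with 42 CpG.
FOXO1 promoter: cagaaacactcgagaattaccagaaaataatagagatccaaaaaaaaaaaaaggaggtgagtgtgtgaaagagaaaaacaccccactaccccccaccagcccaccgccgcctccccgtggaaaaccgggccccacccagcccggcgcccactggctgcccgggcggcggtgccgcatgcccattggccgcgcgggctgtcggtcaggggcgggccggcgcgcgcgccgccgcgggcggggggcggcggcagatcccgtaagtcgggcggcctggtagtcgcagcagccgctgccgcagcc
FOXO6 promoter: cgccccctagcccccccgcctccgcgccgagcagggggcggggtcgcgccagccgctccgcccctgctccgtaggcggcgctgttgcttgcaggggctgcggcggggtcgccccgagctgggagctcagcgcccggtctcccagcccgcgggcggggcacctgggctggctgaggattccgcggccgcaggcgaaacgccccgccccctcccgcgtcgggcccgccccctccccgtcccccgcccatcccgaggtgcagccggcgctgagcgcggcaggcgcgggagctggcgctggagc

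**Figure D2:**
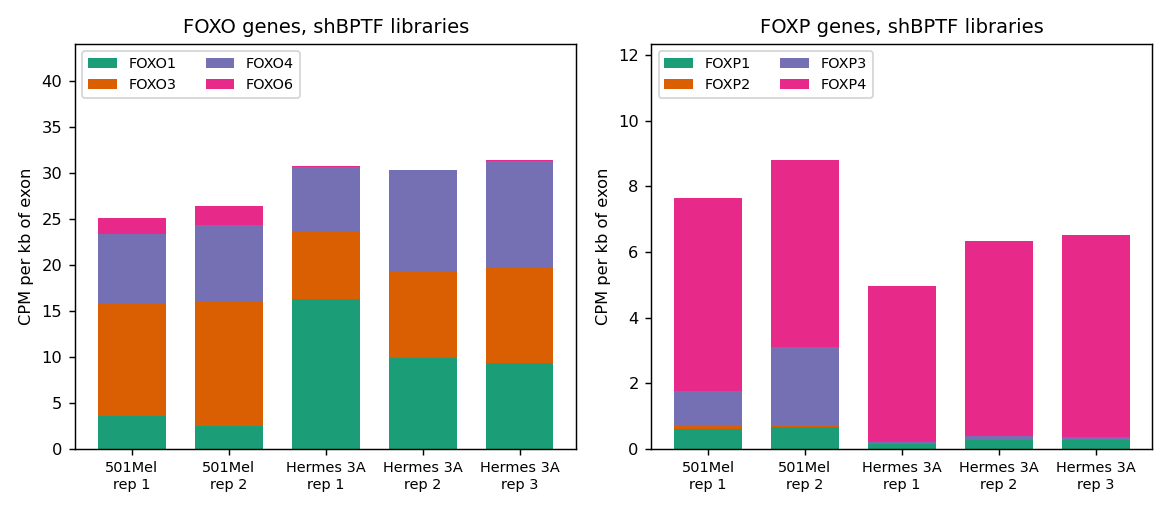
CPM per kb of exon of the FOXO genes (left) and the FOXP genes (right) in each library, stacked by gene from 0. FOXO1 fills 29.5% to 53.1% of the FOXO bar in Hermes 3A cells and at most 14.4% in 501Mel cells, and FOXP4 fills at least 64.9% of every FOXP bar.

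Among the FOXP genes, FOXP1, FOXP2 and FOXP3 were called higher in 501Mel cells and FOXP4 was not called. FOXP2 and FOXP3 passed the filter only through the 501Mel libraries, where they are high. The number called therefore says nothing about the subfamily. FOXP1 (ENSG00000114861, chr3:70952817-71583993, minus strand), which acts in lymphocyte and heart development, had 22.1 and 24.2 CPM in 501Mel cells and 5.09, 10.1 and 9.41 CPM in Hermes 3A cells. It was 2.73-fold higher (log2 fold change 1.45, SE 0.29, adjusted p 0.00617, edgeR). FOXP2 (ENSG00000128573, chr7:114086327-114693772, plus strand), known from speech and language disorder, had 1.53 and 1.24 CPM in 501Mel cells and 7, 3 and 2 counts in Hermes 3A cells, at most 0.168 CPM. The difference passed the test (log2 fold change 3.61, SE 0.55, adjusted p 0.00194, edgeR), but rests on few counts in the melanocytes.

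FOXP3 (ENSG00000049768, chrX:49250436-49264826, minus strand) is the factor that defines regulatory T cells. It had 122 and 236 counts in 501Mel cells, 2.84 and 6.23 CPM, and 7, 13 and 7 counts in Hermes 3A cells, 0.168, 0.318 and 0.233 CPM. All 501Mel values lay above all Hermes 3A values, although replicate 2 of 501Mel was over 2-fold above replicate 1. The log2 fold change was 4.17 (SE 0.52, adjusted p 0.000836, edgeR), and 3.46 without 501Mel replicate 2. The pan-leukocyte gene PTPRC had 2 counts in the 501Mel libraries together. The end of FOXP3 overlaps exons of CCDC22 on the opposite strand over 91 bases, 3.44% of its exons, and whether the counting used strand is not given in the sources used here. CCDC22 was at 30.1 and 46.8 CPM in 501Mel cells and 30.1, 24.6 and 23.2 CPM in Hermes 3A cells.

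FOXP4 was the FOXP gene with the most RNA per kb of exon in every library. It had 36.3 and 35.3 CPM in 501Mel cells and 29.4, 36.5 and 38.1 CPM in Hermes 3A cells. The lines overlapped, and the 95% interval of the log2 fold change reached from -0.39 to 0.37 (adjusted p 0.956, edgeR). FOXP4 supplied 76.9% and 64.9% of the FOXP sum per kb of exon in 501Mel cells and 93.7% to 95.7% in Hermes 3A cells. FOXP3 supplied 14.0% and 26.7% in 501Mel cells and at most 1.90% in Hermes 3A cells. These shares change with the length taken. With the median transcript length FOXP1 stood above FOXP4 in 501Mel cells, at means of 14.5 and 10.1 CPM per kb. In Hermes 3A cells FOXP1 stood below FOXP4, at 5.14 and 9.79.

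The promoters of FOXP3 and FOXP1 are shown because each holds a match. The FOXP3 window is chrX:49264661-49264960 on the minus strand, with a TATAAA that begins 31 bases before the start, and it has 10 CpG. The FOXP1 window, 1 of 6 for that gene, is chr3:71543508-71543807 on the minus strand, and in it the second E-box was found on both strands, overlapping, from 91 bases before the start. The TATA box is in 11.5% of the 35116 promoters of the table and the E-box CATGTG in 11.1%.
FOXP3 promoter: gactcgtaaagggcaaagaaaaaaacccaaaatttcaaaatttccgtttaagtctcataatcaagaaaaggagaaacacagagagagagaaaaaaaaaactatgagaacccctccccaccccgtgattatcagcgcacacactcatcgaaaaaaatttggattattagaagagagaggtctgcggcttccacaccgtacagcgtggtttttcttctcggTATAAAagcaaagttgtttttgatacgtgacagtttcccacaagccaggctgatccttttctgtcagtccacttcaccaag
FOXP1 promoter: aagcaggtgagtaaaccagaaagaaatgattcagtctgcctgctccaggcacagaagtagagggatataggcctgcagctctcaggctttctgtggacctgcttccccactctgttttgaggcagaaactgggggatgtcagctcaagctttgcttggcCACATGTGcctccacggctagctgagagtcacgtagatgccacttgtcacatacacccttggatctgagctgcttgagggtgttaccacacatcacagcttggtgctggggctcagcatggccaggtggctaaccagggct

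Over the whole family, 38 of the 48 members matched 49 promoters of the table. The forkhead core is in 2 of the 49, those of FOXO4 and of FOXP1 at another start than the one printed, against 3.42% of all promoters. The E-box CACGTG is in the promoters of FOXK1 and FOXP4 (7.26% of all), the other E-box in those of FOXD1, FOXD4L3, FOXD4L4 and FOXP1, and the TATA box in those of FOXA3, FOXD4L3, FOXD4L4, FOXD4L5, FOXP3 and FOXR2. The member promoters had a median of 25 CpG per 300 bases, where all promoters had 14. A match is a description of the letters only, and no binding was measured in these files.

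FOXQ1, FOXF2 and FOXC1 lie next to each other at the end of the short arm of chromosome 6, with the start of FOXF2 at 77.1 kb and that of FOXC1 at 298 kb from the start of FOXQ1. FOXQ1 (ENSG00000164379, chr6:1312440-1314748, plus strand), which is tied to epithelial plasticity in carcinoma, had 1 count in each 501Mel library and 254, 65 and 59 counts in Hermes 3A cells, or 6.10, 1.59 and 1.96 CPM. The pooled rate was 136-fold higher in Hermes 3A cells with a 95% counting interval from 37.3 to 1125, which leaves out the spread between replicates. The difference passed the test (log2 fold change -6.94, SE 1.06, adjusted p 0.00192, edgeR). Without Hermes 3A replicate 1 the value was -6.04.

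FOXC1 (ENSG00000054598, chr6:1609972-1613897, plus strand), a factor of the neural crest and of the anterior eye, had 41.3 and 18.0 CPM in 501Mel cells and 9.41, 6.78 and 4.06 CPM in Hermes 3A cells. It thus went the other way from FOXQ1 on the same stretch (log2 fold change 2.05, SE 0.44, adjusted p 0.00805, edgeR). The replicates of either line spread over 2-fold, and without 501Mel replicate 1 the call was lost (log2 fold change 1.35, adjusted p 0.0669, edgeR). FOXF2, a mesenchymal factor that lies between them, had 27.0 and 5.42 CPM in 501Mel cells, a 4.98-fold gap, and 36.2, 37.5 and 45.1 CPM in Hermes 3A cells. It was not called (log2 fold change -1.36, SE 0.57, adjusted p 0.0861, edgeR), but passed without 501Mel replicate 1 (log2 fold change -2.92, adjusted p 0.000853) and with DESeq2, no filter or the replicate block. A number of members shared this replicate gap. Of the 23 tested, 5 (FOXC1, FOXC2, FOXD2, FOXF2 and FOXN2) were at least 2-fold higher in 501Mel replicate 1 than in replicate 2, where 7.43% of all genes tested were. In the other direction 2 members, FOXP3 and FOXL2 with its 0 and 1 counts, were at least 2-fold higher in replicate 2, where 4.81% of all genes were. What sets the replicates apart was not tested.

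**Figure D3:**
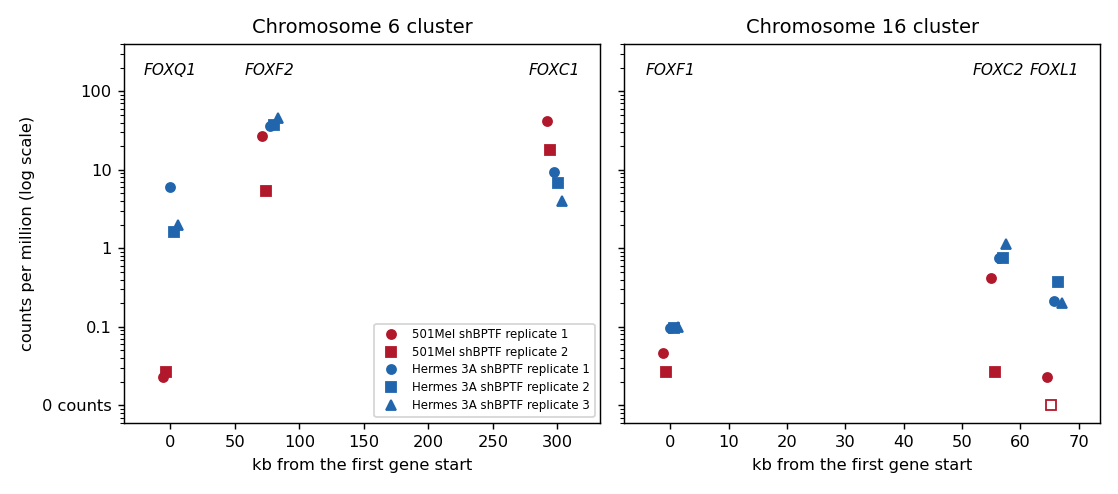
CPM in each library, on a log axis with open symbols for 0 counts, of the forkhead genes on chromosome 6 (left) and chromosome 16 (right) against the distance of their start from the first gene of the cluster in kb. On chromosome 6 the 501Mel values lie below the Hermes 3A values for FOXQ1 and FOXF2 and above them for FOXC1, and on chromosome 16 they lie below for FOXF1, FOXC2 and FOXL1.

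On chromosome 16 the starts of FOXF1, FOXC2 and FOXL1 lie within 65.8 kb. FOXC2, which acts in lymphatic vessels, had 18 and 1 counts in 501Mel cells and 31, 31 and 34 counts in Hermes 3A cells. That difference was not called (log2 fold change -2.00, SE 0.85, adjusted p 0.0881, edgeR). It moved with the 501Mel replicate left out, being -4.93 without replicate 1 (adjusted p 0.0135) and -1.15 without replicate 2 (adjusted p 0.219), and FOXC2 also passed without a filter (adjusted p 0.0478). FOXF1 and FOXL1 were below the filter, with 2 and 1 counts and with 1 and 0 counts in 501Mel cells, and with 4, 4 and 3 counts and 9, 15 and 6 counts in Hermes 3A cells.

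FOXL2 (ENSG00000183770, chr3:138944224-138947140, minus strand) was read at 0 and 1 counts in 501Mel cells and at 44, 18 and 15 counts in Hermes 3A cells, or 1.06, 0.440 and 0.499 CPM. The lines did not overlap, and Hermes 3A replicate 1 was 2.40-fold above replicate 2. The pooled rate was 55.3-fold higher in Hermes 3A cells, with a 95% counting interval from 9.64 to 2213, and FOXL2 was called lower in 501Mel cells (log2 fold change -5.49, SE 1.04, adjusted p 0.00456, edgeR). With so few counts the fitted value moved to -4.56 without 501Mel replicate 1 and to -7.75 without replicate 2, and the call held in both. FOXL2NB, which starts 3.01 kb away on the other strand, had 8 and 2 counts in 501Mel cells and 9, 5 and 2 counts in Hermes 3A cells, and did not share the pattern. The FOXL2 promoter, chr3:138947088-138947387 on the minus strand, is shown since it overlaps the promoter of FOXL2NB in the RefSeq table. It holds 28 CpG and none of the letters searched.
FOXL2 promoter: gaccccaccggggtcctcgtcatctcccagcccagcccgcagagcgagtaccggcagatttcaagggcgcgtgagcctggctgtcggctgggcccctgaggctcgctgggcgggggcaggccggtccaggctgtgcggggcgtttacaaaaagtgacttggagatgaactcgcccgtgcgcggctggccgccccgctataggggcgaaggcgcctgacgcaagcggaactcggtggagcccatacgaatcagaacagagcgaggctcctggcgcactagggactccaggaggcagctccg

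Genes that FOXL2 acts on or with in the ovary were mostly low. Of a list of 14, 7 passed the filter, and 4 were called higher in 501Mel cells and 1 lower, against 24.2% and 24.0% of all genes. The median log2 fold change of the 7 was 2.87. CYP19A1 and NR5A2 passed the filter only through 501Mel cells, and WNT4 only through Hermes 3A cells. The list was also chosen with earlier results of these data known, so that these counts and the median support nothing about it. CYP19A1, the aromatase that makes oestrogen, had 9.25 and 28.6 CPM in 501Mel cells and 0.264, 0.122 and 0.200 CPM in Hermes 3A cells (log2 fold change 6.51, SE 0.62, adjusted p 0.000279, edgeR). FST, which encodes the activin inhibitor follistatin, had 8.90 and 27.9 CPM in 501Mel cells and 3.00, 2.86 and 1.26 CPM in Hermes 3A cells. AMH, the anti-Müllerian hormone, had 5.72 and 8.69 CPM against 0.336, 1.54 and 0.998 CPM. The nuclear receptor gene NR5A2, chosen for naming after its values were seen, had 1.30 and 1.90 CPM against 0.0665 to 0.0734 CPM. WNT4 was lower in 501Mel cells at 0.116 and 0.106 CPM against 0.744, 2.42 and 1.96 CPM. CYP19A1 and FST both had about 3 times the CPM in 501Mel replicate 2 that they had in replicate 1. With at least 10 counts required in every library, 2 of the list were higher and 0 lower of 4 tested.

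Of the FOXN and FOXJ genes, FOXN4 and FOXJ3 separated the lines most clearly. FOXN4 (ENSG00000139445, chr12:109277979-109309220, minus strand), a factor of retinal and spinal progenitors, had 50 and 42 counts in 501Mel cells, 1.16 and 1.11 CPM, and 0 counts in each Hermes 3A library. Against 3 counts per library FOXN4 was at least 13.9-fold higher in 501Mel cells, and it passed the test (adjusted p 0.00150, edgeR). FOXJ3, which is expressed in many tissues, had 133 and 124 CPM in 501Mel cells and 73.3, 77.9 and 80.9 CPM in Hermes 3A cells. With 5734 and 4695 counts in 501Mel cells it had the smallest SE of the 23 members, 0.12, and its log2 fold change was 0.67 (adjusted p 0.00415, edgeR).

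FOXN2 had 65.4 and 29.2 CPM in 501Mel cells and 26.4, 19.2 and 19.0 CPM in Hermes 3A cells (log2 fold change 1.06, SE 0.34, adjusted p 0.0364, edgeR). This call was lost without 501Mel replicate 1 (log2 fold change 0.38, adjusted p 0.354), without Hermes 3A replicate 2 (0.90, adjusted p 0.110) and without Hermes 3A replicate 3 (0.92, adjusted p 0.116). FOXN3, first described as a checkpoint suppressor, had 53.9 and 48.2 CPM in 501Mel cells and 49.3, 90.0 and 119 CPM in Hermes 3A cells. Hermes 3A replicate 1 lay within the 501Mel range, and FOXN3 was not called (log2 fold change -0.80, adjusted p 0.0728, edgeR). It passed without that replicate (-1.09, adjusted p 0.00414), without a filter (-0.84, adjusted p 0.0172) and with DESeq2. FOXJ2 had 34.2 and 25.4 CPM against 24.4, 30.9 and 23.0 CPM, which overlap.

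FOXK1 and FOXK2, repressors of autophagy genes that also drive glycolysis, were high in all libraries. FOXK1 had 125 and 135 CPM in 501Mel cells and 115, 118 and 144 CPM in Hermes 3A cells, with a 95% interval of the log2 fold change from -0.37 to 0.34. FOXK2 had 82.1 and 94.9 CPM in 501Mel cells and 86.0, 93.5 and 99.2 CPM in Hermes 3A cells, with an interval from -0.46 to 0.20. Neither was called (adjusted p 0.959 and 0.467, edgeR), and the intervals bound a difference to less than 1 on the log2 scale.

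Of the FOXD genes none was called. FOXD1, a factor of kidney stroma, was at 0.532 to 0.661 CPM in the 5 libraries. FOXD2 had 4.02 and 1.72 CPM in 501Mel cells and 0.792, 1.08 and 1.43 CPM in Hermes 3A cells (log2 fold change 1.33, SE 0.48, adjusted p 0.0560, edgeR), and it passed without 501Mel replicate 2 (1.79, adjusted p 0.0308), with DESeq2 and with at least 10 counts in every library. FOXD4 was at 0.0998 to 0.396 CPM, and 63.1% of its 50-base words recur in exons of its copies and other genes, so that its count is uncertain. Its copies FOXD4L3, FOXD4L4, FOXD4L5 and FOXD4L6 share at least 62.6% of their words with other genes.

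**Figure D4:**
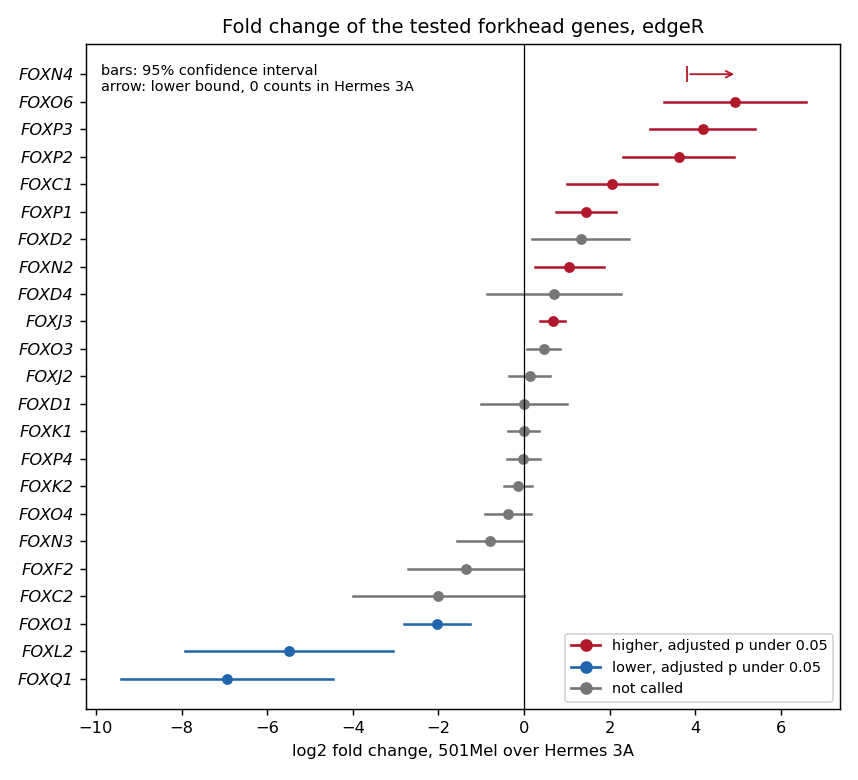
Log2 fold change of 501Mel over Hermes 3A for the 23 tested forkhead genes, as points with 95% confidence intervals from edgeR, in red where called higher, blue where called lower and grey where not called. FOXN4 is drawn as an arrow from its lower bound, and intervals are not adjusted for the number of genes, so that those of FOXD2, FOXO3, FOXN3, FOXF2 and FOXC2 leave 0 without a call.

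The members that were not tested held few counts, with FOXR2 as the exception. FOXR2, a gene silent in most adult tissues, was listed for 501Mel cells alone and had 948 and 723 counts there, 22.0 and 19.1 CPM. No comparison can be made, as the gene is not in the tables of Hermes 3A cells. Per kb of exon FOXR2 had the third highest level of the members in 501Mel cells, at 10.7 ± 1.08 CPM per kb (SD, n = 2). Its promoter, as noted among the matches, holds a TATA box on the opposite strand from 7 bases before the start and 1 CpG.

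Of the 14 members listed for both lines but below the filter, FOXI3 was at 0 in all libraries and 6 had counts in Hermes 3A cells alone, where no member had counts in 501Mel cells alone. The highest count among the 14 was 16, for FOXH1 in Hermes 3A replicate 2, the library with the fewest genes at 0. FOXH1 shares 31.4% of its words, mostly with KIFC2 on the opposite strand, which had 26.5, 46.9 and 26.0 CPM in Hermes 3A cells. FOXA1, a pioneer factor of endoderm and breast, had 0 and 0 counts in 501Mel cells and 12, 3 and 2 counts in Hermes 3A cells. Counts went the other way for FOXA3, with 7 and 0 against 0, 1 and 0, and for FOXJ1, the regulator of motile cilia, with 5 and 3 against 0, 0 and 2. FOXA2, FOXE1, FOXE3, FOXR1 and FOXD4L1 had at most 5 counts in any library. FOXB1, FOXI1 and FOXN1, listed for 501Mel cells alone, were at 0 in both libraries and FOXD4L5 had 0 and 1 counts. FOXI2 and FOXS1, listed for Hermes 3A cells alone, were at 0 in the 3 libraries. FOXB2, FOXD4L3, FOXD4L4 and FOXD4L6 were listed for neither line.

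Compared per kb of exon, FOXJ3 had the highest level in 501Mel cells at 18.7 ± 0.947 CPM per kb (SD, n = 2), followed by FOXO3 at 12.9 ± 0.942, and FOXF2 the highest in Hermes 3A cells at 16.2 ± 1.97 (SD, n = 3), followed by FOXO1 at 11.8 ± 3.89 and FOXJ3 at 11.2 ± 0.554. FOXO1, FOXJ3, FOXO4, FOXK1 and FOXK2 followed each other in Hermes 3A cells, from 11.8 down to 9.30 CPM per kb, closer than the spread of FOXO1 and FOXO4 between replicates. The order depends on the length taken, since with the median transcript length FOXK2 stood at 113 CPM per kb in 501Mel cells and FOXN3 at 168 in Hermes 3A cells, above FOXJ3 and FOXF2 at 25.2 and 17.1.

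The genes that signal to the FOXO proteins were described from a list of 23, the insulin and IGF1 receptors, PI3-kinase, AKT and SGK genes with their phosphatases. Of the 22 tested, 4 were called higher and 8 lower in 501Mel cells, 18.2% and 36.4%, against 24.2% and 24.0% of all genes, with a median log2 fold change of 0.019, near the 0.025 of all genes. Without 501Mel replicate 1 these counts fell to 1 and 4. IGF1R was higher at 245 and 189 CPM against 97.9, 137 and 142 CPM, while INSR was lower at 9.99 and 14.8 CPM against 19.2, 23.0 and 22.3 CPM. The PI3-kinase catalytic subunits also split. PIK3CA had 40.2 and 40.3 CPM in 501Mel cells and 15.6, 16.9 and 15.7 CPM in Hermes 3A cells (log2 fold change 1.26, SE 0.16, adjusted p 0.000799, edgeR), and PIK3CD had 42.6 and 39.2 CPM against 178, 176 and 159 CPM (log2 fold change -2.13, SE 0.15, adjusted p 8.13e-05).

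AKT1 was lower in 501Mel cells at 130 and 111 CPM against 219, 221 and 243 CPM. SGK3 was higher at 27.5 and 24.8 CPM against 16.9, 14.8 and 12.9 CPM, and RICTOR, named as the fourth called higher, had a log2 fold change of 0.39 (adjusted p 0.0394, edgeR). SGK2 was below the filter.

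Of 21 genes that bind, move or modify FOXO proteins, 20 were tested, 7 were called higher and 4 lower, 35% and 20%, against 24.2% and 24.0% of all genes, and the median log2 fold change was 0.18. SKP2, the ubiquitin ligase subunit that targets FOXO1 for degradation, had 165 and 154 CPM in 501Mel cells and 32.7, 25.1 and 25.5 CPM in Hermes 3A cells (log2 fold change 2.45, SE 0.18, adjusted p 0.000106, edgeR). MDM2, another ubiquitin ligase for FOXO proteins and for p53, went the other way at 72.0 and 42.3 CPM against 290 to 435 CPM (log2 fold change -2.74, SE 0.28, adjusted p 0.000379). XPO1, the exportin that takes them out of the nucleus, was higher at 621 and 552 CPM against 304, 243 and 231 CPM, and STK4, a kinase that favours nuclear FOXO, at 146 and 114 CPM against 60.6, 65.3 and 79.3 CPM. The 14-3-3 genes split, with YWHAH and YWHAE higher and YWHAG lower in 501Mel cells (log2 fold changes 1.02, 0.64 and -0.86). SIRT2 and KAT2B were the other genes called lower. SFN was below the filter.

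Of a list of 40 genes known as targets of FOXO proteins in various tissues, 33 were tested, 17 were called lower in 501Mel cells and 2 higher, 51.5% and 6.06%, against 24.0% and 24.2% of all genes. The median log2 fold change was -0.77. CDKN1A is among the 17. INSR, also among the 17, and IRS2, which was not called, are in the upstream list as well. The listed targets have many other regulators, and BBC3, CDKN1A, GADD45A, SESN1 and SESN2 are known p53 targets too. FBXO32, the ubiquitin ligase atrogin-1, had 33.7 and 52.8 CPM in 501Mel cells and 230.2, 254 and 236 CPM in Hermes 3A cells (log2 fold change -2.53, SE 0.22, adjusted p 0.000215, edgeR). TSC22D3, which encodes the glucocorticoid-induced leucine zipper GILZ, had 1.49 and 1.24 CPM against 13.7, 16.3 and 19.8 CPM (log2 fold change -3.66, SE 0.30, adjusted p 0.000145). PIK3IP1, an inhibitor of PI3-kinase, had 4.79 and 2.30 CPM against 15.0, 35.8 and 42.1 CPM, and the sphingosine receptor gene S1PR1 had 1.21 and 0.423 CPM against 18.5, 11.1 and 10.7 CPM.

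The targets called higher were PPARGC1A, the coactivator of mitochondrial biogenesis, at 62.0 and 93.5 CPM against 9.51, 7.17 and 8.18 CPM, and PDK4, a kinase that turns off pyruvate dehydrogenase, at 414 and 329.6 CPM against 145, 76.9 and 69.0 CPM. PDK4 was named after its values were seen. CDKN1A, which encodes the cell cycle inhibitor p21, is listed at 0 in both 501Mel libraries and at 801, 774 and 1131 CPM in Hermes 3A cells, and no fold is given. It is 1 of 5 genes listed at 0 in 501Mel cells with a mean of at least 100 CPM in Hermes 3A cells. Among the others are H1F0, a linker histone gene, and S100A6, and the reason for these zeros was not tested. CDKN1B, the gene of the related inhibitor p27, had 78.7 and 63.8 CPM against 62.8, 69.7 and 75.5 CPM, which overlap. The median of the list stays at -0.77 with CDKN1A at its lower bound. That outcome was fixed, since CDKN1A is the lowest value of the list either way. FASLG and IGFBP1 were listed for 501Mel cells alone, at 0 counts.

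**Figure D5:**
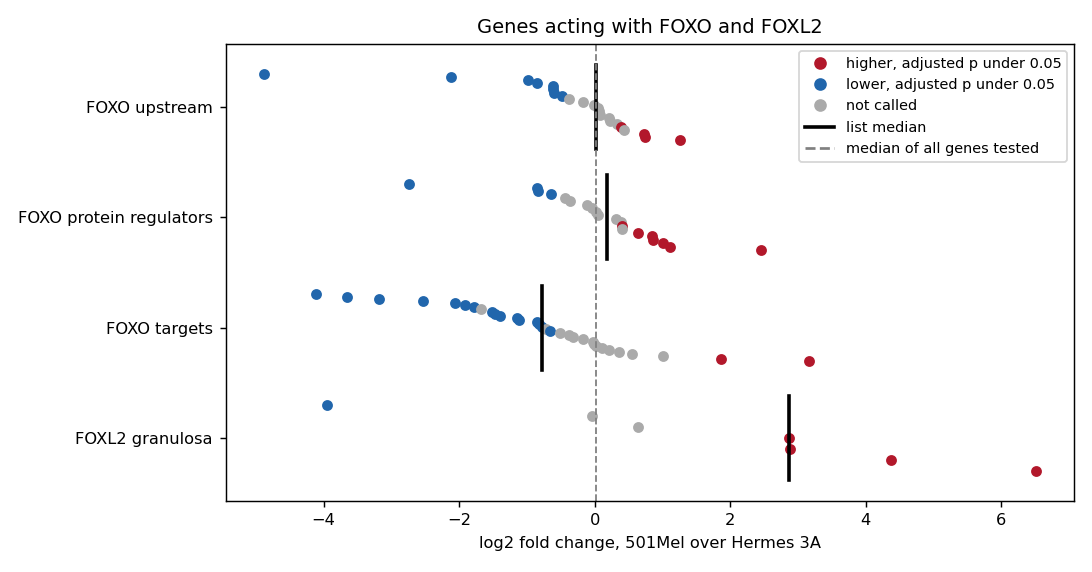
Log2 fold change of 501Mel over Hermes 3A (edgeR) for the tested genes of the FOXO upstream, FOXO protein regulator, FOXO target and FOXL2 lists, 1 point per gene, without CDKN1A, in red where called higher, blue where called lower and grey where not called, with a bar for the list median and a dashed line for the median of all genes. The FOXO target median is at -0.77, and the upstream median, at 0.019, lies on the line.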

How the data were processed

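RNA-seq libraries of shBPTF cells were used, 2 of 501Mel and 3 of Hermes 3A. The values that the authors deposited are raw, whole-number counts for each Ensembl gene. Per the submitters' processing notes reads were handled with CASAVA 1.8, TopHat 1.4.1 and Bowtie 0.12.7 on hg19, and the counting program, annotation and strand setting are not given in the sources used here. The files listed 37259 genes for 501Mel and 34033 for Hermes 3A cells, and genes listed for a single line were not compared. Names, coordinates and lengths came from GENCODE 29 on GRCh38, another build than that of the reads, and promoters from RefSeq on GRCh38.p14. The treatment of the libraries with duplex-specific nuclease, which lowers abundant RNA, can compress high levels.

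The 31029 shared genes were filtered with filterByExpr, scaled with TMM and compared with edgeR 4.0.16 (glmQLFit, glmQLFTest) in R 4.3.3, with Benjamini-Hochberg adjustment over all 17975 genes that passed. A log2 fold change is 501Mel over Hermes 3A, on edgeR's scale with TMM factors, and CPM uses the library total alone. SE is the log2 fold change divided by the root of F. Every tested member was named with its values. Of each list the 6 called genes with the largest absolute log2 fold change and a mean of at least 1 CPM were named, and any other name was chosen after its values were seen. Counting intervals are exact at 95%, use counts summed over the libraries of each line, and leave out the spread between replicates. DESeq2 1.42.0, other scalings and filters, the replicate block, each library left out, and genes of a single line counted as 0 (chosen after seeing the data) were the alternatives. Values of 1 member below the filter and of 2 list genes are not reported here singly. The members and lists were chosen with earlier results of these data known.

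Tested on simulated data for this comparison, with 200 of 17975 genes changed by 2 on the log2 scale at a dispersion of 0.05, edgeR recovered 94.9% of the 195 that passed the filter, with 6 false calls. The simulation gave every gene the same dispersion and changed few genes, where 48.2% were called in the data. Its 94.9% is therefore a check of the code and not the power of this comparison. Replicates differed by far more than counting noise, with a chi-square per gene of at least 20.5, and no libraries were merged for the tests. Normalized values of control libraries in the paper's supplement were not used here.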

Additional observations from a re-analysis of the deposited data

How the results depend on the processing

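Fold changes of the called members kept their direction under every alternative in which they were tested, and calls were lost for FOXC1 and FOXN2 alone, when single libraries were left out. With at least 10 counts in every library, FOXL2, FOXN4, FOXO6, FOXP2, FOXP3 and FOXQ1 were not tested. The number of forkhead genes called lower, 3, was 5 with DESeq2, 10 of 36 without a filter, 1 of 15 with at least 10 counts in every library, and 3 to 6 with single libraries left out (6 without 501Mel replicate 1 and 5 without Hermes 3A replicate 1). In the FOXO upstream list, the 4 called higher were 1 to 3 and the 8 called lower 4 to 8 with single libraries left out. Without 501Mel replicate 1 they were 1 and 4, without Hermes 3A replicate 2 they were 2 and 5, without Hermes 3A replicate 3 they were 2 and 4, and without 501Mel replicate 2 the lower were 5. In the FOXL2 list, 2 were higher and 0 lower with at least 10 counts in every library. FOXJ3, the highest per kb in 501Mel cells, was at 25.2 CPM per kb with the median transcript length.

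Members near 0 changed sign, none of them called. FOXD1 gave -0.014 with DESeq2 and with median-ratio factors, -0.036 without a filter, -0.0018 with genes of a single line counted as 0, and -0.13 to 0.054 with libraries left out, against 0.0018. FOXK1 gave 0.058 with the total count alone, 0.023 with at least 10 counts in every library, and -0.13 to 0.056 with libraries left out, and FOXP4 gave 0.053, 0.021, and -0.11 to 0.014. FOXJ2 ranged from -0.085 to 0.30 with libraries left out.

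The lines share 2 replicate numbers. The deviations of same-numbered libraries correlated at 0.102 and 0.137 across genes, and those of differently numbered libraries at -0.137 to 0.022. With 2 libraries of 501Mel cells their deviations mirror each other, so that these values cannot decide whether the numbers pair the libraries. The main fit did not pair them. With the replicate block 7461 genes were called in place of 8669, 2 of the FOXO upstream list were higher in place of 4, FOXF2 (-1.65, adjusted p 0.0271, edgeR) and FOXO3 (0.57, adjusted p 0.0323) passed, and FOXD1, FOXK1 and FOXP4 were at -0.091, 0.090 and 0.061.

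DESeq2 also passed FOXD2 (1.31, adjusted p 0.0375), FOXF2 (-1.38, adjusted p 0.0266) and FOXN3 (-0.82, adjusted p 0.0410). Over all genes the called share was 32.4% to 52.3% with libraries left out and 30.7% without a filter. Depth limits the members at few counts, where 3 counts are up to 0.0998 CPM.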

Other observations

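RNAs that lie beside forkhead genes were read as well. FOXP4-AS1, antisense to the start of FOXP4, had 54 counts in each 501Mel library and 0, 4 and 6 counts in Hermes 3A cells, and was called higher in 501Mel cells (log2 fold change 3.76, SE 0.84, adjusted p 0.00915, edgeR), while FOXP4 itself was not called. FOXN3-AS1 had 44 and 29 counts in 501Mel cells and 84, 80 and 67 counts in Hermes 3A cells, and was called lower (log2 fold change -1.27, SE 0.39, adjusted p 0.0309, edgeR). FOXD2-AS1 had 266 and 159 counts in 501Mel cells and 59, 153 and 132 counts in Hermes 3A cells, with 501Mel replicate 1 the highest as for FOXD2, and was not called (adjusted p 0.297, edgeR). FOXC2-AS1 and FOXP1-AS1 had at most 5 counts in any library. Of these RNAs, FOXC2-AS1 alone shares exon bases with its forkhead neighbour in the annotation used here, 145 bases on the opposite strand. Since the strand setting of the counting is not given, reads of that stretch cannot be told apart. FOXP4-AS1, FOXN3-AS1 and FOXP1-AS1 overlap the span of their neighbours outside its exons, and unspliced reads there were not measured. FOXD2-AS1 lies outside the span of FOXD2.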
